A study of Bos taurus with 18 samples.

Results

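The comparison was PHY against control in the rumen papillae of 9 ruminally cannulated, non-lactating Holstein cows, averaged over the 2 diets on which every cow was biopsied. Cows had been allocated at random to a control arm (5 cows) and an arm that received PHY (4 cows), a supplement that the labels do not expand. The diets were a baseline of 100% forage and, after it, a high-grain diet with 65% concentrate. All 18 of the 18 libraries of the series entered, as 4 groups: forage_control (control cows on forage, n = 5), forage_PHY (PHY cows on forage, n = 4), grain_control (control cows on grain, n = 5) and grain_PHY (PHY cows on grain, n = 4). The labels give no age and no genotype, and they do not say whether PHY was already fed when the forage biopsy was taken. The averaged difference is the mean of grain_PHY minus grain_control and forage_PHY minus forage_control, each on the log2 scale. Each cow gave 1 library per diet and no label ties a library to a cow, so the 8 PHY and 10 control libraries are not independent. The p-values of the averaged difference treat them as independent and are therefore too small, and this holds for every averaged p below. The 9 libraries of a single diet come from 9 different cows.

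The rumen wall is lined by a stratified squamous epithelium raised into papillae. Its basal keratinocytes divide and move upward, tight junctions and desmosomes hold the layers together, and a vascular, fibroblast-rich core carries absorbed nutrients away. The epithelium takes up the short-chain fatty acids made by the microbes, turns butyrate into ketone bodies, and uses carbonic anhydrases, bicarbonate exchangers and sodium-proton exchangers to handle the acid load. It is also a barrier to microbes, with antimicrobial and interferon-responsive genes and a resident immune compartment.

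Libraries held 3953060 to 34471682 counted reads. Levels are given as CPM, the reads of a gene scaled to a common library size with TMM factors. PHY libraries averaged 1.1 times the reads of control libraries on forage (exact permutation p = 0.619, two-sided) and 0.679 times on grain (exact permutation p = 0.286). With 5 against 4 libraries, 0.0159 is the smallest p this test can give. Reads on 144 olfactory receptor genes, a family used mainly in the nose, stood at 0.684 times the control CPM on forage (exact permutation p = 0.397) and 1.63 times on grain (exact permutation p = 0.587). Grain_PHY 1 stood apart with the fewest reads and a scaling factor of 2.35. Basal keratinocyte markers were high in every library, with KRT5 at 951 to 5600 CPM and the 4 basal markers together at 2270 to 11200. Of the 4 markers chosen for the layers above, KRT1, KRT10 and KRT4 together reached only 3.77 to 15.5 CPM, and KRT13 was not among the names of the table.

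No gene passed a Benjamini-Hochberg adjusted p of 0.05 in the averaged comparison (0% of the 22202 genes tested with edgeR's quasi-likelihood test). The smallest adjusted p was 0.348, for AZGP1. At an unadjusted p under 0.05 there were 405 genes, 208 with PHY higher (0.937% of genes tested) and 197 with PHY lower (0.887%). DESeq2 called 5 genes among 585 at an unadjusted p under 0.05, and limma voom with quality weights called 2 among 1012. DESeq2's 5 were AZGP1 (adjusted p = 0.00504), CA1 (0.000201), RND3 (0.0179), ENSBTAG00000053508 (0.00173) and ENSBTAG00000048514 (0.000815). Voom called AZGP1 (adjusted p = 0.043) and ENSBTAG00000048514 (0.0432). On forage alone edgeR called 0% of genes, with 125 (0.563%) higher and 231 (1.04%) lower in PHY cows at an unadjusted p under 0.05. On grain alone it also called 0%, with 178 (0.802%) higher and 393 (1.77%) lower. In the average and on each diet, the fraction at an unadjusted p under 0.05 was below the 0.05 expected with no difference between arms. The median log2 fold change of all genes tested was −0.04 in the average. Since no gene passed in edgeR, the genes below are described by their levels in each library, with the log2 fold change and its SE (± after a log2 fold change). After a mean level, ± is the SD over the 5 control or 4 PHY libraries. Their edgeR adjusted p was 0.348 or above in each comparison. Where a count of genes at p under 0.05 is given, that p is unadjusted and belongs to the averaged difference unless a diet is named.

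Genes that differed the same way on both diets, with an unadjusted p under 0.05 on each, numbered 22. PHY was higher for 9 of them (0.0405% of genes tested) and lower for 13 (0.0586%). The 9 with PHY higher were AZGP1, ISG12(B), MATN3, SEPTIN5, SCARB1, TMCO4, SPC25, FUOM and ENSBTAG00000053508. The 13 with PHY lower were CA1, RND3, TAF1B, HAP1, RASL11A, TMEM171, BOLA-DQB and 6 genes without a symbol. Their averaged log2 fold changes ran from 0.44 to 3.33 in the first set. In the second they ran from −3.60 to −0.61 for the 12 genes with reads in every group. Of the 22 genes, 7 stayed below a mean of 5 CPM in the higher arm. No label pairs the diets by cow and the same cows gave both, so the count has no independent check between diets. Just inside the threshold lay ENSBTAG00000037452, with an unadjusted p of 0.0494 on forage, and ENSBTAG00000049900, with 0.0491 on grain. Just outside it lay UTP15 (0.0536 on forage), GPR137 (0.0545 on grain) and DCBLD2 (0.0566 on forage). 1 gene passed on both diets in opposite directions and is described last.

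**Figure D1:**
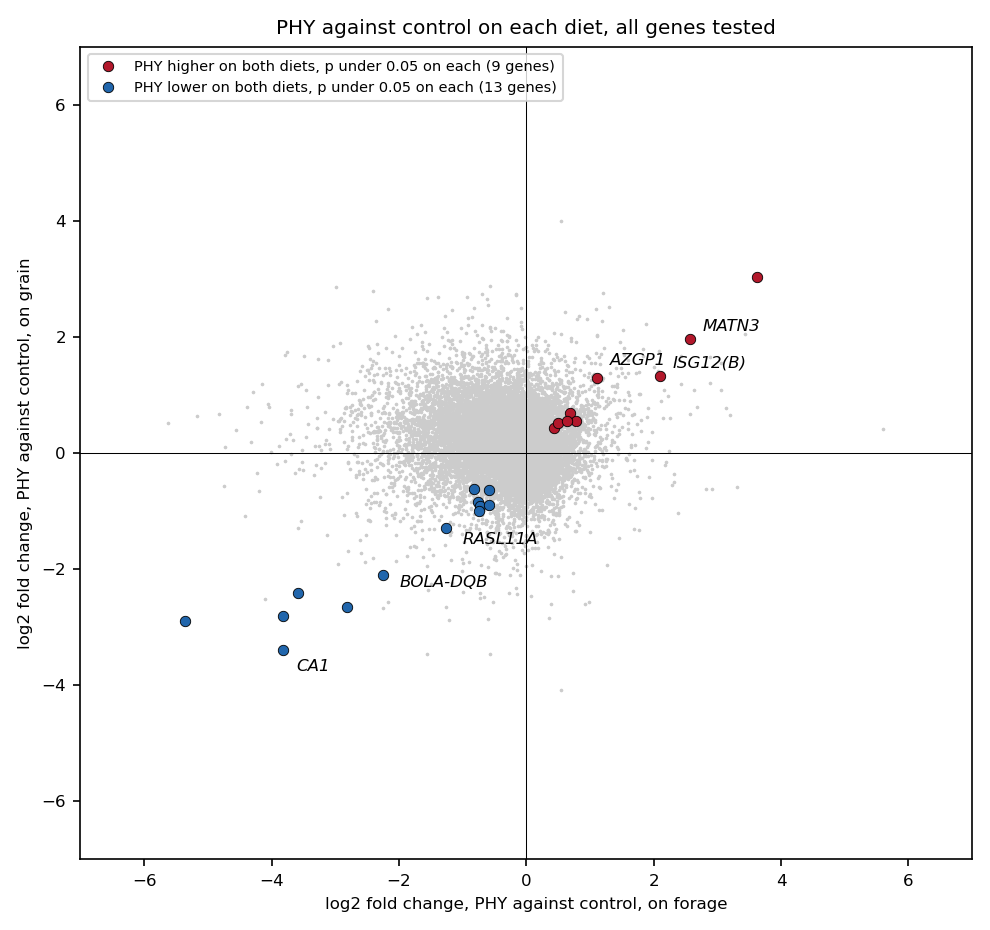
Log2 fold change of PHY against control on forage (x axis) and on grain (y axis) for the 22202 genes tested (grey points). The 9 genes higher in PHY cows on both diets (red) and the 13 lower on both (blue) are those with an unadjusted edgeR p under 0.05 on each diet; CA1 lies at −3.81 and −3.40, AZGP1 at 1.11 and 1.30.

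AZGP1 (ENSBTAG00000026236) encodes zinc-alpha-2-glycoprotein, a secreted protein with a fold like MHC class I that promotes lipid mobilisation. On forage it read 5.28, 2.15, 2.93, 6.22 and 4.1 CPM in control libraries and 6.87, 6.05, 13.9 and 9.14 in PHY libraries. On grain it read 6.53, 3.17, 4.18, 4.69 and 3.18 in control libraries and 8.23, 8.07, 13.5 and 12.5 in PHY libraries. All 4 PHY libraries on grain lay above all 5 controls, and on forage 3 of 4 did. The averaged log2 fold change was 1.21 ± 0.23 (SE), or 2.31-fold higher (edgeR adjusted p = 0.348). On forage it was 1.11 ± 0.32 and on grain 1.30 ± 0.32, a difference between diets (grain minus forage) of 0.19 ± 0.45.

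CA1 (ENSBTAG00000032236), a cytosolic carbonic anhydrase that hydrates carbon dioxide, was the gene of highest level among the 22. On forage control libraries read 115, 6.93, 127, 81.4 and 10.4 CPM and PHY libraries 4.18, 4.52, 5.26 and 5.49. On grain control libraries read 62.5, 7.69, 123, 46.8 and 8.09 and PHY libraries 0.542, 3.15, 6.31 and 8.55. In each diet 3 of 5 control libraries were high and the other 2 stood near the PHY libraries, none of which exceeded 8.55 CPM. The high libraries were numbers 1, 3 and 4 on both diets, and below BOLA-DQB was highest in control library 5 and ISG12(B) in PHY libraries 1 and 2 on both. The numbers follow the order of deposit, and no label says that they mark a cow. The averaged log2 fold change was −3.60 ± 0.73, or 12.2-fold lower (edgeR adjusted p = 0.899). It ranged from −3.82 to −3.27 as single libraries were left out. CA1 is also abundant in red blood cells. Of 5 red blood cell markers, 4 were in the table: HBB did not exceed 1.93 CPM, HBA did not exceed 0.835, and ALAS2 and SLC4A1 made up most of the sum. That sum ran from 0.777 to 6.28 CPM in forage_control, 1.36 to 4.21 in forage_PHY, 4.16 to 16.3 in grain_control and 4.03 to 17.3 in grain_PHY. The other 13 carbonic anhydrase genes are given with the transport genes below.

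Further genes with PHY lower follow. RND3 (ENSBTAG00000039731), a small GTPase that opposes actin contraction, read 44.5, 19.2, 26.3, 32.3 and 29 CPM in forage_control and 23.7, 18.7, 20.5 and 18 in forage_PHY. Grain values were 24.2, 31.5, 33.4, 22.6 and 42.6 for controls and 11.7, 19.6, 18.7 and 16.4 for PHY. Every PHY library on grain lay below every control, and on forage 2 of 4 did. The averaged log2 fold change was −0.74 ± 0.17, or 1.67-fold lower. RASL11A (ENSBTAG00000005244), a Ras-like GTPase, read 7.77, 11.9, 5.93, 27 and 7.75 CPM in forage_control and 10.3, 3.58, 3.38 and 2.85 in forage_PHY. Control libraries on grain read 10.9, 6.29, 6.36, 11.4 and 4.91, and PHY libraries 7.04, 2.88, 2.4 and 0.786. In each diet 3 of 4 PHY libraries lay below all controls and 1 lay among them (averaged −1.27 ± 0.38). HAP1 (ENSBTAG00000052414), a huntingtin-binding protein of vesicle transport, read 15.8, 6.28, 10.9, 13.3 and 13.6 CPM in forage_control and 5.01, 7.48, 5.59 and 9.07 in forage_PHY. In grain libraries the values were 9.31, 8.97, 6.94, 11.7 and 13.3 (control) and 9.1, 5.47, 4.33 and 7.27 (PHY). The arms overlapped on both diets, and 2 of 4 PHY libraries lay below all controls on each (averaged −0.73 ± 0.20).

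TAF1B (ENSBTAG00000007543) is a subunit of the factor that recruits RNA polymerase I to ribosomal DNA. It read 8.83, 13.2, 12.7, 9.49 and 10.0 CPM in forage_control and 7.67, 7.82, 5.92 and 7.61 in forage_PHY, with no overlap. On grain it read 13.5, 14.5, 12.1, 10.6 and 8.51 in control libraries and 8.77, 9.28, 7.27 and 5.01 in PHY libraries, with 2 of 4 PHY libraries below all controls. The averaged log2 fold change was −0.61 ± 0.16. TMEM171 (ENSBTAG00000008494), a membrane protein, read 9.58, 6.57, 6.87, 16.9 and 9.08 CPM in forage_control and 6.84, 5.17, 6.59 and 4.53 in forage_PHY. Grain values were 3.39, 13.6, 5.96, 3.59 and 8.51 for controls and 3.03, 3.25, 3.25 and 6.29 for PHY. The arms overlapped on both diets (averaged −0.80 ± 0.26).

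BOLA-DQB (ENSBTAG00000021077) encodes a beta chain of MHC class II, which presents peptides to helper T cells. It read 0.755, 1.2, 0.467, 1.47 and 8.62 CPM in forage_control and 0.697, 0.592, 0.498 and 0.293 in forage_PHY. Control libraries on grain read 0.604, 0.658, 0.401, 1.61 and 9.96, and PHY libraries 0.325, 1.11, 0.541 and 0.491. In each diet 1 control library, at 8.62 and 9.96 CPM, stood far above the rest, and the others overlapped the PHY libraries. The averaged log2 fold change was −2.17 ± 0.66 and stood at −1.32 without grain_control 5 and −0.85 with voom. The DQ genes are polymorphic and occur in near-identical copies, so how reads were shared among them is uncertain.

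Among the genes with PHY higher, MATN3 and ISG12(B) differed most on the log2 scale after the gene without a symbol. MATN3 (ENSBTAG00000020893) encodes matrilin 3, an adaptor protein of extracellular matrix. It read 0.679, 0.478, 1.53, 0.164 and 0 CPM in forage_control and 2.47, 5.92, 2.16 and 2.63 in forage_PHY, with no overlap. In grain libraries the values were 1.93, 0.206, 0.459, 0.953 and 0.187 (control) and 0.975, 4.45, 2.4 and 3.24 (PHY), and 3 of 4 PHY libraries lay above all controls. The averaged log2 fold change was 2.27 ± 0.59, from 0 to 23 reads per control library. ISG12(B) (ENSBTAG00000004272) belongs to a family of small interferon-induced proteins. It read 0.679, 1.85, 0.867, 3.48 and 2.39 CPM in forage_control and 16.9, 11, 1.66 and 2.71 in forage_PHY. On grain it read 2.9, 4.4, 1.49, 2.2 and 2.06 in control libraries and 14, 7.42, 2.89 and 2.26 in PHY libraries. In each diet 2 of 4 PHY libraries stood high and the other 2 lay within the control range (averaged 1.72 ± 0.43).

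SEPTIN5 (ENSBTAG00000008320), a filament-forming GTP-binding protein, read 12.2, 7.23, 8.87, 7.89 and 9.88 CPM in forage_control and 19.9, 12.4, 15.3 and 15.5 in forage_PHY. Grain values were 6.77, 9.17, 13.7, 8.06 and 6.36 for controls and 10.7, 12.4, 8.42 and 20.5 for PHY. The arms did not overlap on forage and overlapped on grain (averaged 0.67 ± 0.18, and 0.35 with voom). SCARB1 (ENSBTAG00000014269), the receptor for high-density lipoprotein, read 4.38, 3.29, 4.07, 3.97 and 5.91 CPM in forage_control and 6.91, 6.48, 6.76 and 7.02 in forage_PHY. Control libraries on grain read 4.23, 4.4, 6.59, 5.21 and 4.44, and PHY libraries 5.85, 10.3, 5.29 and 7.86. It showed the same pattern, separate on forage and overlapping on grain (averaged 0.60 ± 0.18).

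The remaining named genes of the higher set differed less. SPC25 (ENSBTAG00000010048), a kinetochore subunit that ties chromosomes to the spindle, read 5.51, 6.69, 5.33, 6.34 and 8.46 CPM in forage_control and 9.95, 8.35, 10.8 and 7.53 in forage_PHY. In grain libraries the values were 6.53, 8.72, 5.33, 5.35 and 7.24 (control) and 8.02, 13, 7.27 and 9.93 (PHY). All 8 PHY libraries lay above the control median of their diet (averaged 0.51 ± 0.17). FUOM (ENSBTAG00000005715), a mutarotase of fucose, read 10.5, 11.1, 11.5, 6.05 and 20.4 CPM in forage_control and 23.2, 17.2, 16.6 and 19.5 in forage_PHY. On grain it read 4.47, 9.5, 10.6, 5.06 and 13.8 in control libraries and 7.8, 15.7, 13.8 and 19.2 in PHY libraries. The arms overlapped on both diets, and 7 of 8 PHY libraries exceeded their control median (averaged 0.68 ± 0.22). TMCO4 (ENSBTAG00000007998), a membrane protein, read 11.9, 12.1, 9.53, 14.4 and 10.9 CPM in forage_control and 11.5, 16, 16.7 and 19.8 in forage_PHY. Grain values were 10.0, 12.6, 9.57, 8.5 and 9.16 for controls and 14, 15.7, 13.1 and 11.5 for PHY. It had the lowest averaged value of the 9, 0.44 ± 0.14, and 3 of 4 PHY libraries lay above all controls on each diet.

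The other 7 genes of the set have no symbol in the table, and no function is given for them. ENSBTAG00000048514 was the only one of the 22 whose arms did not overlap on either diet. Its control libraries held 10 to 53 reads and its PHY libraries 0 to 5. It averaged 0.876 ± 0.139 CPM (± SD) across the 5 controls on forage and 0.0612 ± 0.0686 across the 4 PHY libraries. On grain it averaged 1.18 ± 0.607 and 0.22 ± 0.236 in the 5 and 4 libraries. ENSBTAG00000053508 went the other way, at 0.138 ± 0.113 against 1.83 ± 1.48 CPM on forage and 0.162 ± 0.247 against 1.37 ± 0.19 on grain. Its averaged log2 fold change was 3.33 ± 0.69, with 1 forage_PHY library at 0.222 CPM within the control range. ENSBTAG00000025385 (−0.81 ± 0.19) and ENSBTAG00000037452 (−0.87 ± 0.26) lay between 4.82 and 41.3 CPM. The last 3, ENSBTAG00000048337, ENSBTAG00000049900 and ENSBTAG00000053784, averaged under 1 CPM in the higher arm. All 4 forage_PHY libraries held 0 reads of ENSBTAG00000048337 against 0 to 13 in forage_control, so no fold is given for it.

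**Figure D2:**
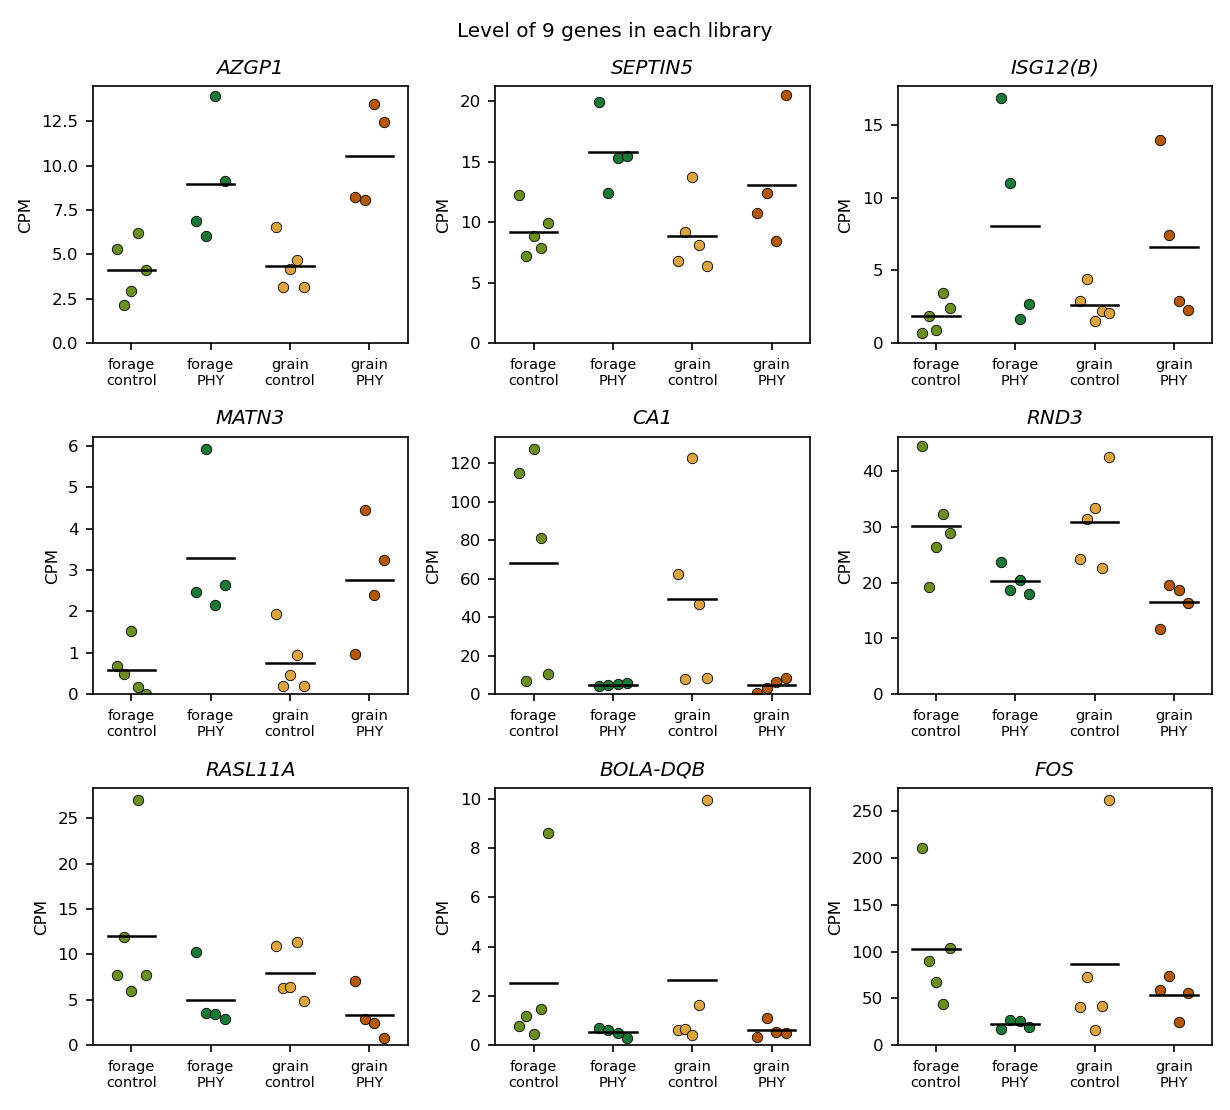
CPM (y axis, from 0) of 9 genes in each of the 18 libraries, by group (x axis), with 1 point per library and a line at the group mean. AZGP1, SEPTIN5, ISG12(B) and MATN3 stood higher in PHY groups, and CA1, RND3, RASL11A and BOLA-DQB lower; CA1 was high in 3 of 5 control libraries on each diet, BOLA-DQB in 1 of 5, and FOS separated the arms on forage but not on grain.

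Another rule, which uses levels and no p, is that all 4 PHY libraries lie on 1 side of all 5 controls on each diet. PHY was higher in this sense for 2 genes (0.00901% of genes tested) and lower for 1 (0.0045%). Of the 22202 genes tested, 123 separated on forage and 159 on grain. Among all arrangements of 5 and 4 libraries, a share of 0.0159 separates them fully, so separation on 1 diet does not by itself mark a gene. The same cows gave both diets, so the share expected by chance for both is not known. Separation on both diets does not by itself mark a gene either. The gene lower on both diets was ENSBTAG00000048514. The higher genes were AARS2 and SUV39H1. AARS2 (ENSBTAG00000013722), the mitochondrial alanyl-tRNA synthetase, read 18.9, 20.9, 17, 18 and 20.8 CPM in forage_control and 23.4, 22.4, 24.5 and 26.8 in forage_PHY. Control libraries on grain read 16.6, 19.8, 19.7, 16.7 and 17.4, and PHY libraries 20.3, 21.9, 22.9 and 22.8. All libraries of a group lay within a narrow range (averaged 0.32 ± 0.12). SUV39H1 (ENSBTAG00000004706), which methylates histone H3 in heterochromatin, read 4.6, 4.84, 5.33, 3.43 and 5.23 CPM in forage_control and 6.3, 6.3, 5.43 and 5.78 in forage_PHY. In grain libraries the values were 5.32, 4.61, 3.61, 6.01 and 4.49 (control) and 6.61, 7.14, 7.57 and 6.29 (PHY). Its averaged log2 fold change was 0.44 ± 0.17. Neither gene passed an unadjusted p of 0.05 on both diets in edgeR.

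Of the 10 genes with the smallest averaged p in each direction, at least 5 CPM in the higher arm and a symbol, 8 were not among the 22. With PHY higher these were KRT35, NUF2 and CDKN2B. KRT35 (ENSBTAG00000006807), a type I hair keratin, read 2.19, 4.36, 2.27, 3.64 and 1.55 CPM in forage_control, 2.38, 6.05, 6.26 and 7.09 in forage_PHY, 6.41, 3.83, 3.44, 3.59 and 3.13 in grain_control and 7.04, 4.55, 5.41 and 8.65 in grain_PHY. The arms overlapped on both diets (averaged 0.81 ± 0.26). NUF2 (ENSBTAG00000007247), which sits with SPC25 in the NDC80 complex of the kinetochore, read 5.21, 5.62, 7.73, 6.3 and 10.1 CPM in forage_control, 10.9, 9.88, 11.7 and 9.65 in forage_PHY, 7.01, 6.05, 7.45, 6.6 and 8.97 in grain_control and 7.69, 10.0, 8.78 and 11.2 in grain_PHY. All 8 PHY libraries lay above their control median (averaged 0.49 ± 0.16). CDKN2B (ENSBTAG00000051567), an inhibitor of cyclin-dependent kinases, read 1.74, 3.23, 3.13, 5.93 and 8.4 CPM in forage_control, 12.2, 5.02, 8.86 and 7.46 in forage_PHY, 4.11, 3.29, 4.07, 2.86 and 3.23 in grain_control and 4.77, 4.73, 4.03 and 9.73 in grain_PHY. It also lay above the control median in all 8 (averaged 0.81 ± 0.26).

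With PHY lower the genes outside the 22 were DCBLD2, DUSP1, UTP15, CHKA and TSPAN14. DCBLD2 (ENSBTAG00000014889), a membrane protein related to neuropilins, read 19.6, 13.5, 21.2, 10.8 and 17.6 CPM in forage_control, 17.3, 8.17, 7.31 and 12.9 in forage_PHY, 14, 19.5, 18.6, 13.9 and 24.5 in grain_control and 11.4, 10.4, 6.67 and 7.57 in grain_PHY. The arms separated on grain and overlapped on forage (averaged −0.77 ± 0.19). UTP15 (ENSBTAG00000006843), part of the machinery that processes small-subunit ribosomal RNA, read 18.6, 11.9, 15.1, 19.1 and 18.3 CPM in forage_control, 13.9, 13.4, 13 and 8.99 in forage_PHY, 13.8, 19.1, 14.2, 12.3 and 21.5 in grain_control and 12.6, 9.46, 10.6 and 10.5 in grain_PHY. All 8 PHY libraries lay below their control median (averaged −0.51 ± 0.15). CHKA (ENSBTAG00000010304), choline kinase, starts phosphatidylcholine synthesis. It read 20.3, 11.4, 25.9, 20.1 and 13.1 CPM in forage_control, 11.5, 9.72, 10.4 and 10.5 in forage_PHY, 8.1, 13.3, 19.2, 16.6 and 15.2 in grain_control and 14.3, 8.44, 12.7 and 6.59 in grain_PHY. The arms overlapped on both diets, with 3 of 4 PHY libraries below all controls on forage and 1 of 4 on grain (averaged −0.63 ± 0.19). TSPAN14 (ENSBTAG00000003907), a tetraspanin, read 11.7, 10.5, 8.13, 9.73 and 11.7 CPM in forage_control, 7.06, 8.48, 7.59 and 8.48 in forage_PHY, 5.2, 7.32, 6.82, 6.74 and 8.93 in grain_control and 3.79, 5.1, 5.41 and 3.93 in grain_PHY. All 8 PHY libraries lay below their control median (averaged −0.51 ± 0.15). DUSP1 is described with the immediate early genes.

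Immediate early genes, which are switched on within minutes by growth factors, stress or handling of tissue, leaned lower in PHY cows, with the larger values on forage. Of 25 tested, 22 had a negative averaged log2 fold change and 5 had p under 0.05 with PHY lower, against 0.887% of all genes tested. None had PHY higher at that level. Without single libraries the 5 became 3 (without forage_control 2, forage_PHY 4, grain_control 5, grain_PHY 1 or grain_PHY 3) to 9 (without grain_PHY 2; 8 without grain_control 3), while 22 or 23 stayed negative. With forage libraries only 9 were lower at that level, with grain libraries only 0, and with voom 9 were lower and 1 higher. All genes at that level, in both directions, numbered 220, 365 and 1012 in these settings in turn, and 405 in the main fit. The list's median was −0.48 in the average, −0.51 on forage and −0.33 on grain, beside −0.04 for all genes in the average. DUSP1 (ENSBTAG00000013863), a phosphatase that switches off MAP kinases, read 84.8, 34, 14.4, 19.6 and 26.1 CPM in forage_control and 9.12, 9.66, 11.5 and 7.02 in forage_PHY. On grain it read 16, 35.1, 10.7, 14.7 and 56.9 in control libraries and 26.6, 13.1, 11.2 and 17.1 in PHY libraries. The arms separated on forage and overlapped on grain, with log2 fold changes of −1.93 ± 0.53 and −0.66 ± 0.51 (grain minus forage 1.27 ± 0.71). FOS (ENSBTAG00000004322), the AP-1 subunit, read 210.4, 89.5, 67.4, 44.2 and 104 CPM in forage_control and 17.3, 26.7, 26.2 and 19.3 in forage_PHY. Grain values were 40.3, 72.5, 15.7, 41.7 and 263 for controls and 59.4, 74, 24.6 and 56 for PHY. It too separated on forage only (averaged −1.45 ± 0.45), at −2.20 ± 0.65 on forage and −0.70 ± 0.62 on grain, and the averaged value was −0.94 without grain_control 5. The other 3 were JUN (−0.85 ± 0.28), the partner of FOS, ATF3 (−1.59 ± 0.65), a stress-responsive repressor, and EGR1 (−1.07 ± 0.47), a zinc finger activator. ATF3 was at −0.99 without grain_control 5. Among 29 genes of the unfolded protein and heat shock response ATF3 was again the one with p under 0.05, and the median was −0.11.

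Genes of cell division leaned higher in PHY cows, again with the larger values on forage. For the lists the difference between diets was not tested. Of 38 tested, 34 had a positive averaged log2 fold change and 9 had p under 0.05 with PHY higher, against 0.937% of all genes tested. Without single libraries the 9 ran from 2 (without forage_control 4 or forage_PHY 3) to 15 (without forage_control 5 or grain_PHY 1), and 31 to 35 stayed positive. The count was 3 or 4 without forage_control 3, forage_PHY 1, grain_control 2, grain_PHY 2, grain_PHY 3 or grain_PHY 4, and 5 without forage_control 1. There were 21 with voom, 15 with the total reads covariate, 9 with forage libraries only and 0 with grain libraries only, where 25 of 38 were positive. The background moved too: all genes at that level, in both directions, numbered 405 in the main fit, 1012 with voom and 809 with the total reads covariate. They numbered 220 with forage libraries only and 365 with grain libraries only. The 9 of the main fit were CDC20, CCNB2, BUB1, CCNA2, PRC1, NUSAP1, CENPE, TPX2 and AURKA, which act in mitosis. The list's median was 0.25 in the average, 0.43 on forage and 0.06 on grain. CCNB2 (ENSBTAG00000005269), a mitotic cyclin, averaged 5.98 ± 1.83 CPM in the 5 control libraries on forage and 9.85 ± 1.42 in the 4 PHY libraries (± SD). On grain it averaged 7.81 ± 1.57 and 9.18 ± 1.66. Its log2 fold change was 0.71 ± 0.23 on forage and 0.23 ± 0.24 on grain (grain minus forage −0.48 ± 0.34). CDC20 (ENSBTAG00000009819), which triggers anaphase, averaged 10.4 ± 3.39 against 16.4 ± 3.62 CPM on forage and 11.1 ± 1.05 against 13.5 ± 3.37 on grain. MKI67, the marker of cycling cells, averaged 270.5 ± 100.2 and 396 ± 94.4 CPM on forage and 227 ± 72.8 and 245 ± 97.2 on grain, with an averaged log2 fold change of 0.33 ± 0.24.

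**Figure D3:**
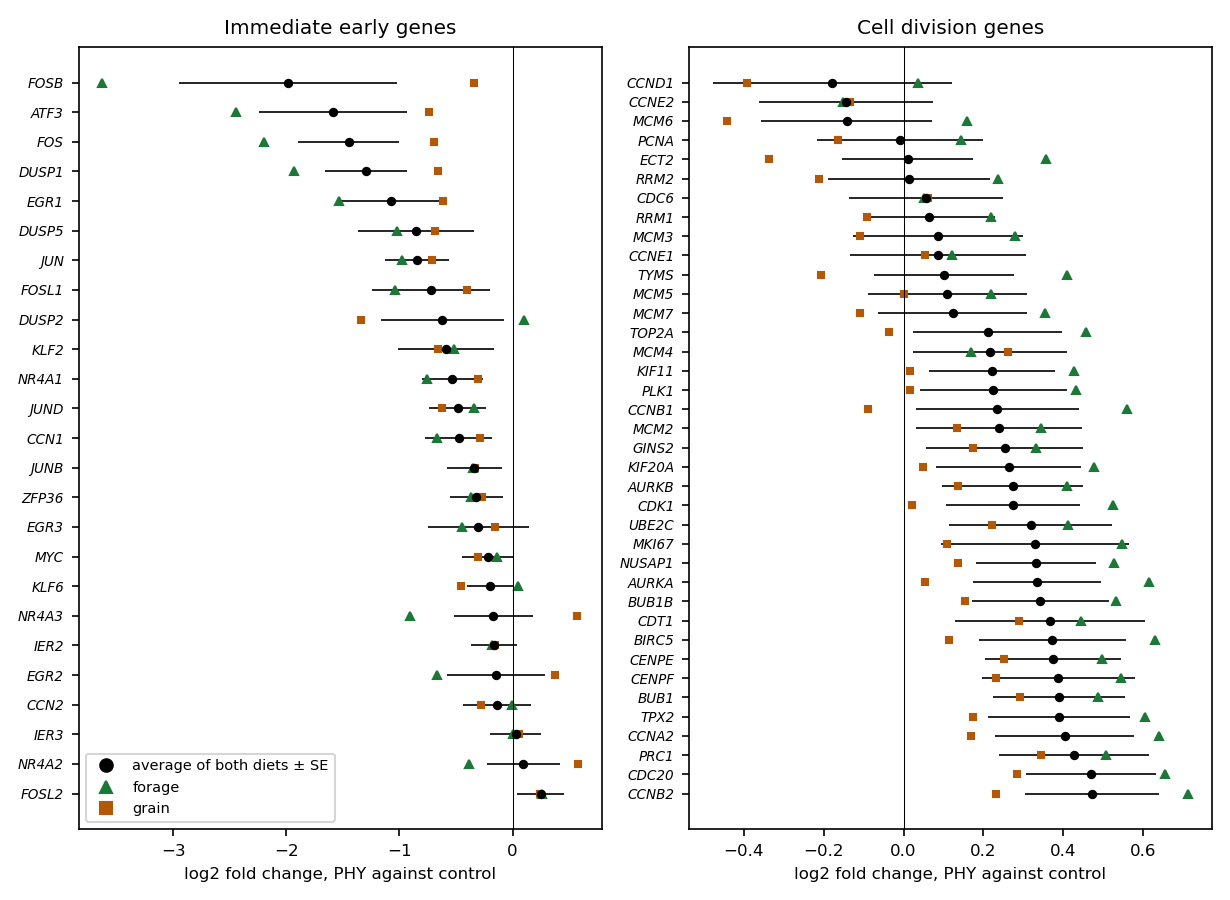
Log2 fold change of PHY against control (x axis) for each tested gene (y axis) of the immediate early list (25 genes) and the cell division list (38 genes): the average of both diets with its SE (black), forage (green triangle) and grain (brown square). In the average 22 of the 25 immediate early genes lie below 0 and 34 of the 38 cell division genes lie above it, and for most of those with the largest averaged values the forage value is farther from 0 than the grain value.

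Structural genes of the epithelium differed little. The 15 basal layer genes had a median of 0.03 and none at p under 0.05, with KRT5 at 0.21 ± 0.27. The 30 genes of the upper layers had a median of −0.03. SERPINB2, a protease inhibitor of keratinocytes, was the 1 member with p under 0.05, at −0.57 ± 0.23, and at −0.35 without grain_control 5. Of all genes 0.887% were lower at that level. KRT10 was at −0.06 ± 0.26, from levels near 3 to 4 CPM. Of the 19 regulators of differentiation none had p under 0.05 (median −0.05). Of the 34 genes of tight and adherens junctions and desmosomes 30 had a negative value, with a median of −0.13 in the average, 0.03 on forage and −0.29 on grain, and none had p under 0.05. With the total reads covariate 19 of the 34 were negative. CLDN1, a sealing claudin, averaged 19.1 ± 7.34 against 25.1 ± 8.6 CPM on forage and 16.7 ± 7.56 against 8.46 ± 4.35 on grain. Its difference went opposite ways, 0.40 ± 0.37 on forage and −0.99 ± 0.39 on grain (grain minus forage −1.39 ± 0.54, edgeR adjusted p = 0.954). CLDN4 was at −0.41 ± 0.24 and OCLN at −0.23 ± 0.20 in the average.

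In the papillary core, matrix and smooth muscle genes leaned higher in PHY cows in the average, and endothelial genes did not. The 34 extracellular matrix and stromal genes had 30 positive values and a median of 0.38 (0.53 on forage and 0.18 on grain), and the 13 smooth muscle and pericyte genes 12 positive values and a median of 0.28 (0.54 and 0.03). Neither list had a member at p under 0.05. Single libraries weighed on this, since 18 matrix genes had p under 0.05 with PHY higher without forage_control 5, 11 without forage_PHY 3 and 3 without grain_PHY 1. The matrix median was 0.58 without forage_control 5, 0.24 without forage_PHY 1 and 0.20 with voom, where 7 of the 34 were negative. BGN, the proteoglycan biglycan, was at 0.59 ± 0.29, ELN, elastin, at 0.66 ± 0.34, and ACTG2, a smooth muscle actin, at 0.77 ± 0.45. In the smooth muscle and pericyte list RGS5 went the other way, at −0.379 ± 0.275 in the average. It was at 0.185 ± 0.385 on forage and −0.942 ± 0.396 on grain. The summed level of 6 fibroblast markers ranged from 270.0 to 2210 CPM in forage_control, 185 to 2300 in forage_PHY, 860 to 1320 in grain_control and 444 to 1920 in grain_PHY, so the groups overlapped throughout. In bulk tissue more cells of a type and more RNA per cell cannot be told apart. Medians were −0.03 for 16 endothelial genes and 0.01 for 15 nerve and Schwann cell genes.

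Cytosolic ribosomal protein genes leaned lower in PHY cows. All 47 had a negative averaged value, from −0.46 to −0.02, with a median of −0.27 in the average, −0.06 on forage and −0.47 on grain, and 0 had p under 0.05. There were 8 at that level without the 3 libraries of fewest reads and 4 without grain_control 1. All genes at that level, in both directions, numbered 708 without those 3 libraries and 405 in the main fit. Without grain_control 5 the median was −0.11 with 3 genes positive. With the total reads covariate it was −0.10, and with voom −0.05 with 7 genes positive. RPLP0, of the ribosomal stalk, averaged 948 ± 355 against 811 ± 140.5 CPM on forage and 672 ± 349.8 against 418 ± 113 on grain, with an averaged log2 fold change of −0.46 ± 0.25. Grain_PHY held 0.679 times the reads of grain_control. With all libraries thinned to the lowest total the median was −0.24 and 46 of 47 genes were negative.

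Butyrate and lipid metabolism showed values near those of all genes. Medians were −0.10 for 17 genes of ketone body formation and butyrate activation, −0.08 for 22 genes of cholesterol synthesis and −0.08 for 18 of fatty acid synthesis, none with a member at p under 0.05. BDH1, which reduces acetoacetate, was at 0.002 ± 0.24, and HMGCS1, which starts cholesterol synthesis, at −0.09 ± 0.28. Among all genes 0.937% had PHY higher at p under 0.05. Of 31 genes of fatty acid oxidation and the PPAR response (median −0.06), the lipase inhibitor ANGPTL4 alone had p under 0.05, at 0.51 ± 0.25. It was at 0.99 ± 0.35 on grain and 0.03 ± 0.35 on forage, and the interaction was not called (edgeR adjusted p = 0.954). PPARA, the receptor for fatty acids, was at 0.05 ± 0.19. Medians were −0.01 for 42 nuclear-encoded respiratory genes, 0.05 for 13 mitochondrially encoded ones and 0.08 for 21 of glycolysis, with no member at p under 0.05.

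Of 48 genes of acid, bicarbonate and ion transport 1 had p under 0.05, with PHY lower, against 0.887% of all genes (median −0.08). It was SLC26A2 (ENSBTAG00000014615), a sulfate transporter, with 95.1 ± 32.9 against 55.1 ± 26.9 CPM on forage and 79.7 ± 27.7 against 38.7 ± 23.2 on grain. Its averaged log2 fold change was −0.92 ± 0.29, and 7 of 8 PHY libraries lay below their control median. The chloride-bicarbonate exchanger SLC26A3 was at −0.46 ± 0.40 and the sodium-proton exchanger SLC9A3 at −0.37 ± 0.37. Without forage_control 4 these 2 were at −0.20 and 0.11. Of 14 carbonic anhydrase genes only CA1 had p under 0.05, and the list's median was −0.09. Of 15 genes of short-chain fatty acid transport and sensing (median −0.08) only HCAR1, the lactate receptor, did, at −1.42 ± 0.65, from levels below 3 CPM and at −2.39 without grain_PHY 3 and −0.87 with voom. SLC16A1, the transporter of monocarboxylates such as lactate and ketone bodies, was at −0.21 ± 0.21. The 20 amino acid and peptide transporters had a median of −0.04 and none at p under 0.05.

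Enzymes acting on foreign compounds had 2 of 44 members lower at p under 0.05, FMO5 and CYP26A1, against 0.887% of all genes tested (median −0.12). FMO5, a flavin monooxygenase, averaged 43.3 ± 19.5 against 27.3 ± 5.08 CPM on forage and 36.5 ± 30.4 against 18.6 ± 8.17 on grain (−0.82 ± 0.30, −0.52 without grain_control 2 and −0.39 with voom). CYP26A1, which degrades retinoic acid, was at −0.41 ± 0.20. CYP1A1, the main target of the aryl hydrocarbon receptor, was at −0.54 ± 0.42, and between −0.97 without forage_PHY 4 and −0.32 without forage_control 4, and at −0.11 with voom. In the list of antioxidant, glutathione and iron genes 2 of 28 were lower at p under 0.05, against 0.887% of all genes (median −0.01). They were SLC40A1, the iron exporter ferroportin (−0.47 ± 0.20), and GCLC, the catalytic subunit for glutathione synthesis (−0.50 ± 0.23). The 21 alcohol and aldehyde dehydrogenases had a median of −0.01 and none at p under 0.05.

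Interferon-responsive genes had 3 of 37 members with PHY higher at p under 0.05, against 0.937% of all genes tested, and a median of 0.08. Without grain_PHY 4 there was 1 higher and 1 lower, and the median ran from 0.025 (without grain_control 5) to 0.14 (without forage_control 3) as single libraries were left out. ISG15, a ubiquitin-like protein, was at 1.44 ± 0.55, IFI27, a relative of ISG12(B), at 0.91 ± 0.38, and IRF9, an interferon-activated transcription factor, at 0.48 ± 0.21. ISG15 averaged 0.629 ± 0.347 against 1.69 ± 0.803 CPM on forage and 0.406 ± 0.27 against 1.13 ± 0.901 on grain. ISG12(B), which was not placed in this list, had its high values in 2 of 4 PHY libraries per diet. MX1, an antiviral GTPase, was at 0.19 ± 0.21.

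Epithelial antimicrobial and mucosal defence genes also had 3 of 34 members with PHY higher at p under 0.05 (0.937% of all genes tested), with a list median of −0.12 in the average, −0.37 on forage and 0.37 on grain. They were AZGP1, PI3 and MUC1. PI3, the elastase inhibitor elafin, averaged 8.41 ± 6.1 against 17.4 ± 6.9 CPM on forage and 13.4 ± 10.8 against 34.7 ± 30.7 on grain (1.21 ± 0.50). MUC1, a membrane mucin, was at 0.96 ± 0.45. The abundant S100A12 (−0.17 ± 0.28) and S100A8 (0.07 ± 0.27) stood near 0. In antigen presentation 2 of 24 were lower at p under 0.05, against 0.887% of all genes (median 0.08). They were BOLA-DQB and BOLA-DQA5, an alpha chain. BOLA-DQA5 read 2.26, 0.418, 1.53, 3.48 and 6.91 CPM in forage_control, 1.36, 2.24, 1.05 and 0.512 in forage_PHY, 1.93, 3.17, 2.98, 2.57 and 11.2 in grain_control and 0.758, 1.58, 0.781 and 0.59 in grain_PHY. It was highest in forage_control 5 and grain_control 5, as BOLA-DQB was. In the average the class II pathway genes BOLA-DRA (−0.18 ± 0.23) and CD74 (−0.17 ± 0.23) did not share these values. On forage BOLA-DRA was at 0.302 ± 0.325 and CD74 at 0.178 ± 0.325. On grain BOLA-DRA was at −0.655 ± 0.334 and CD74 at −0.525 ± 0.329.

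Of 37 cytokine and chemokine genes 1 had p under 0.05, with PHY higher, against 0.937% of all genes (median 0.04). It was IL1B (ENSBTAG00000001321), interleukin 1 beta, which read 2.04, 1.91, 1.87, 0.45 and 1.29 CPM in forage_control and 2.41, 1.12, 2.6 and 0.951 in forage_PHY. Control libraries on grain read 5.2, 0.905, 2.06, 3.23 and 3.32, and PHY libraries 6.39, 6.77, 6.13 and 13.3. The arms overlapped on forage and separated on grain, with log2 fold changes of 0.25 ± 0.49 and 1.49 ± 0.48 (grain minus forage 1.24 ± 0.69, adjusted p = 0.954). CXCL8, the neutrophil chemokine, was at 0.42 ± 0.47. Among 19 genes of toll-like receptors, NOD receptors and their signalling partners none had p under 0.05 (median −0.09). TLR4 was at 0.46 ± 0.39 on forage and −0.68 ± 0.41 on grain (grain minus forage −1.14 ± 0.56). Markers of immune cells gave medians of −0.08 for 30 T and NK cell genes, −0.03 for 15 B and plasma cell genes, 0.05 for 20 myeloid genes and −0.11 for 7 mast cell genes. The single member at p under 0.05 was KLRB1, a receptor of NK cells (−0.98 ± 0.47, and −0.43 with voom). Of all genes 0.887% were lower at that level. The 9 tested red blood cell genes had a median of −0.16 and none at that level.

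Growth, clock and sensory genes gave few differences. The 19 genes of the IGF axis had a median of −0.02 and none at p under 0.05, with IGFBP5, an IGF-binding protein, at 0.06 ± 0.30. Of 16 genes of the EGF receptor family 1 had p under 0.05, the feedback inhibitor ERRFI1 (−0.60 ± 0.26, list median −0.04). Of all genes 0.887% were lower at that level. The 17 clock genes had a median of −0.05 and the 30 TRP channels and other chemosensory receptors a median of 0.12, with none at p under 0.05. No member of any of the 40 lists passed the adjusted threshold in edgeR.

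**Figure D4:**
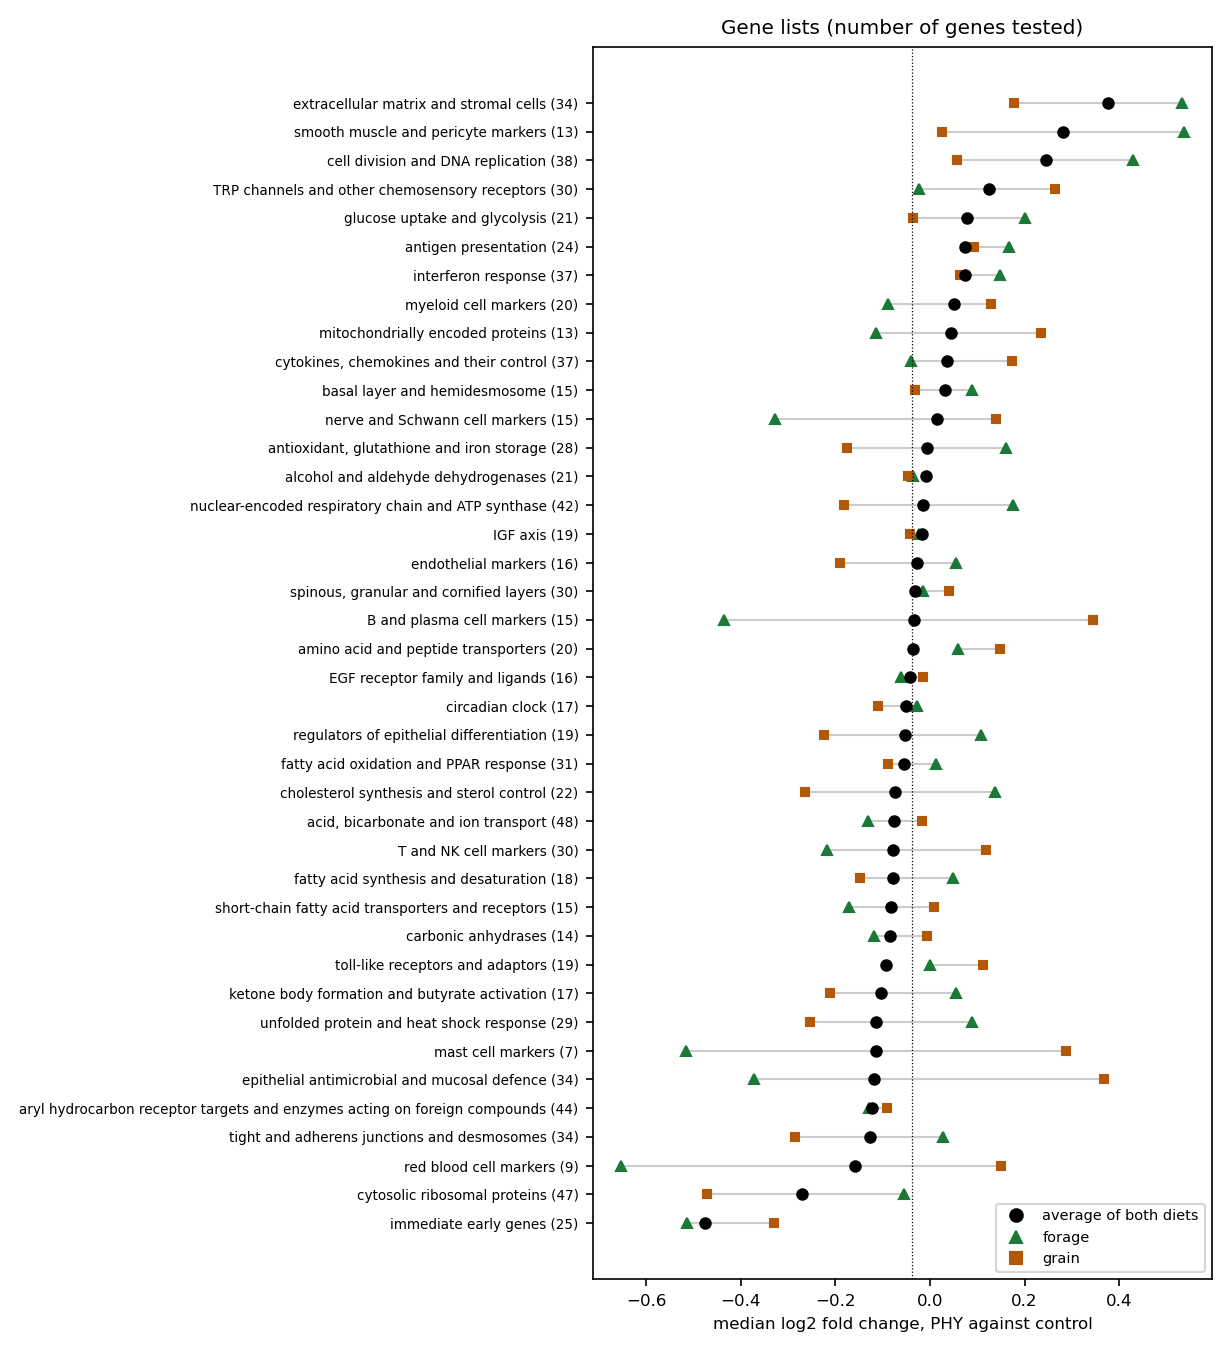
Median log2 fold change of PHY against control (x axis) in each of the 40 gene lists (y axis, with the number of genes tested): average of both diets (black), forage (green triangle) and grain (brown square). The dotted line is the median of all genes tested in the average, −0.04; the extracellular matrix list is highest at 0.38 and the immediate early list lowest at −0.48.

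Whether the difference between PHY and control cows differed between the diets was tested for every gene. Of 22202 genes 0 passed (442 at an unadjusted p under 0.05, smallest edgeR adjusted p 0.954). None of the 22 genes of the same direction had an interaction p under 0.118. The rule that chose them, the same sign on both diets, favours a small difference between diets, so this is not a separate result. The gene that passed on both diets in opposite directions was ENSBTAG00000052691. It averaged 0.377 ± 0.495 CPM in forage_control, 0.0695 ± 0.0326 in forage_PHY, 0.42 ± 0.282 in grain_control and 2.1 ± 1.11 in grain_PHY. Its log2 fold change was −2.37 ± 1.01 on forage and 2.28 ± 0.88 on grain (grain minus forage 4.64 ± 1.34), and −0.04 in the average. No SE is given for the average, because the formula used is unreliable so near 0.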

How the data were processed

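Rumen papillae RNA was sequenced from 10 ng of total RNA per library with a stranded total RNA kit, per the labels' protocols. The submitters' processing notes name bcl2fastq 2.20, DESeq2 and the genome build bosTau9. Which aligner, counter, annotation and strandedness were used is not given in the sources used here, so overlapping, antisense and near-identical genes may share reads. The authors deposited a table of whole-number counts for 27270 Ensembl genes, of which 7506 have no symbol. Their normalized table was not used. Gene names are those of the counts table, and no coordinates or sequences are given.

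From the deposited counts, genes were filtered with filterByExpr by group at its defaults, scaled by TMM and given the robust quasi-likelihood F test of edgeR 4.0.16 in R 4.3.3. The model held 1 mean for each of the 4 groups of diet and arm, over all 18 libraries, with a biological coefficient of variation of 51.4%. Contrasts were PHY against control averaged over the diets, on each diet, and their difference. Calls required a p under 0.05 after Benjamini-Hochberg adjustment over the 22202 genes tested. The SE is the absolute log2 fold change divided by the square root of F, which can be unreliable where the log2 fold change is near 0. CPM used TMM-scaled library sizes, except for olfactory receptor genes, which used total reads. Total reads and olfactory receptor CPM were compared by exact permutation over 126 arrangements. The libraries of a group come from different cows of 1 trial, and the tests set differences against the spread between libraries within groups. No term for cow was fitted, so the p-values of the averaged difference are too small. The functions were tested on simulated counts with known folds.

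The text names genes with a symbol carried by 1 identifier and at least 5 CPM in the higher arm: the 10 of smallest p per direction in the average, and up to 10 per direction that differ the same way on both diets. It adds up to 2 members of smallest p per list, of which some are printed, and 20 preset genes whatever their test, 1 of which is not reported here. All list members under p 0.05, genes without a symbol, genes near a threshold, genes of low level in the set of 22, the 2 genes whose arms did not overlap, and a few further list members are named too, chosen after their values were seen. The 40 lists, the groups and the rules were chosen with earlier results of these data known. Lists are described by counts and medians, with no set test. Alternatives were DESeq2 1.42.0, limma 3.58.1 voom with quality weights, edgeR with DESeq2's size factors, testing of every gene with reads, a mean of at least 5 CPM, an additive model, covariates for olfactory receptor CPM and for total reads, single diets, thinning to the lowest total, and leaving out libraries. Counts of 6 lists under each alternative were added after the data were seen.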

Additional observations from a re-analysis of the deposited data

Results flagged for a closer look

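In groups of 4 or 5 libraries, 6 of the 123 groups examined held a library whose gap to its nearest neighbour was large beside the group's range by Dixon's criterion, and chance flags about 1 in 20. In forage_PHY, TAF1B was lowest in library 3 at 5.92 CPM (others 7.67, 7.82 and 7.61), and UTP15 lowest in library 4 at 8.99 CPM (others 13.9, 13.4 and 13). KRT35 was lowest in forage_PHY 1 at 2.38 CPM (others 6.05, 6.26 and 7.09) and highest in grain_control 1 at 6.41 CPM (others 3.83, 3.44, 3.59 and 3.13). TMEM171 was highest in grain_PHY 4 at 6.29 CPM (others 3.03, 3.25 and 3.25). ENSBTAG00000049900 was at 0.111 CPM in forage_PHY 3 and at 0 in the other forage_PHY libraries.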

How the results depend on the processing

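No paired analysis was possible because no label links libraries of the same cow, and replicate numbers only follow the order of deposit. The averaged comparison called 0 genes under every alternative except DESeq2 (5) and limma voom (2), and 0 without each library in turn. The count of genes higher in PHY cows on both diets (9) became 4 with each diet fitted alone and 26 with voom. It was 15 at a mean of at least 5 CPM and 23 with the olfactory receptor or the total reads covariate. At an unadjusted p under 0.01 on each diet it was 2. Requiring no overlap in place of a p gave 2 other genes, AARS2 and SUV39H1, and 0 of the 9 met it. The count of lower genes (13) became 23 with voom, 5 after thinning, 1 at p under 0.01 and 1 without overlap. Leaving out single libraries gave 4 (without grain_control 4) to 16 (without grain_PHY 1) higher and 7 (without grain_PHY 4) to 17 (without forage_control 2) lower. AZGP1 and CA1 stayed in the set each time a library was left out. The median of the list of enzymes acting on foreign compounds moved from −0.122 to −0.037 with the olfactory receptor covariate. For each change above the cause was not tested. Scaling by DESeq2's size factors moved the median of all genes from −0.04 to −0.05.

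Several genes changed sign. Not all were near 0 in the main fit, where ANGPTL4 was at 0.511, SLC26A3 at −0.458 and SLC9A3 at −0.373. On forage alone ANGPTL4 was at −0.042, CLDN1 at 0.35, CXCL8 at −0.11, HMGCS1 at 0.20, KRT10 at 0.037 and TLR4 at 0.40. On grain alone BDH1 was at −0.22 and PPARA at −0.19. With voom KRT10 was at 0.19, SLC26A3 at 0.05 and SLC9A3 at 0.19. With the olfactory receptor covariate HMGCS1 was at 0.016, and with total reads it was at 0.038. BDH1 was at −0.004 with DESeq2, −0.004 with its size factors in edgeR, −0.001 without the filter and −0.032 without the 3 libraries of fewest reads, where KRT10 was at 0.001. KRT10 was at 0.085 after thinning, and ENSBTAG00000052691 at 0.40 in the additive model. With single libraries left out BDH1 ran from −0.093 to 0.12, ENSBTAG00000052691 from −0.20 to 0.58, HMGCS1 from −0.20 to 0.12, IGFBP5 from −0.06 to 0.29, KRT10 from −0.15 to 0.046, PPARA from −0.071 to 0.13, SLC9A3 from −0.51 to 0.11 and TLR4 from −0.25 to 0.023. These alternatives were run for genes picked by rank, same direction or preset and for list members of small p, not for every gene named. Grain_PHY 1 had the fewest reads, 3953060, so its low genes rest on few counts.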
